A study of Homo sapiens with 346 samples.

Results

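A set of 47 genes of DNA replication and S phase was followed in single cells that were sequenced either alive or after methanol fixation. The genes were chosen by name, and all 47 were listed among the 28806 genes of HCT-116 and the 29551 genes of HepG2. They are the 6 subunits of the MCM helicase, 3 licensing genes, 7 genes of helicase activation and 9 genes of the replicative polymerases. The others are 7 of the sliding clamp and its loaders, 5 of strand binding and maturation, 6 of nucleotide supply and 4 of chromatin. UNG is counted with nucleotide supply here, although it removes uracil from DNA and supplies no nucleotides.

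HCT-116 is a colorectal carcinoma line, and HepG2 is a line known as hepatoblastoma. Untreated cells of each line were set against cells of the same line fixed in 80% methanol and stored in the cold for 1 week. Both were grown in medium with serum, and both were prepared as full-length cDNA by Smart-seq2. The tables held 91 live and 92 fixed HCT-116 cells, and 68 live and 83 fixed HepG2 cells. Each cell is 1 sequencing library, the labels name no separate culture, and so each line and treatment was taken as 1 sample: differences between groups are given as values without a test, and the spread is that of cells. Per the methods, the HepG2 cells come from more than 1 experiment, and no label says which cell belongs to which. Fixed libraries were made after the storage time, so library batch and fixation cannot be told apart. Where 4 values follow one another below, they stand for HCT-116 live, HCT-116 fixed, HepG2 live and HepG2 fixed, in this order.

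The median depth per cell lay between 1.8 M and 2.5 M reads in the 4 groups, and the median number of genes above 0 was 12031, 10359, 13887 and 12293. Ribosomal RNA took 25.7% ± 4.82 (SD over cells) of the TPM of live HCT-116 cells and 7.86% ± 2.15 of the fixed ones, against 6.28% ± 1.91 and 2.44% ± 0.902 in HepG2. TPM is a value per length and a share of a total, so the share of ribosomal RNA bears on the values of other genes, and results without it are given beside the fixed to live ratios. The values of a cell summed to between 975076 and 999962 in HCT-116 and to between 756507 and 999672 in HepG2. The median gene stood 0.17 (log2) higher in fixed HCT-116 and 0.15 higher in fixed HepG2. The HepG2 label was checked against liver genes. Of 17 hepatocyte markers 8 were listed, none was above 1 TPM in at least 50% of the cells, and their summed level had a median of 0.0395 TPM in the live cells labelled HepG2 and of 0 in the fixed ones, with 89.7 TPM in the highest cell. Of 8 luminal breast epithelium markers 7 were above 1 TPM in at least 50% of these cells, with a summed median of 21462 TPM in live cells against 3884 TPM in live HCT-116. The data thus go against the liver label, and HepG2 below means only the cells so labelled. One HepG2 column held identical values under live and fixed, and the results without it are given where they differ.

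Replication starts when ORC, CDC6 and CDT1 load the MCM2-7 ring onto DNA in G1, and when CDC45 and GINS turn that ring into an active helicase in S phase. Polymerase alpha-primase then lays primers, PCNA is loaded by RFC, polymerases delta and epsilon extend the strands, and FEN1 and LIG1 close the nicks. Most of these genes are transcribed in a wave at the G1 to S boundary that is known to depend on E2F factors, which makes them the classic markers of S phase in dividing cells.

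The sequence before the start of these genes is shown first, since the wave is attributed to short E2F sites. RefSeq windows of the 250 bases before an annotated start were found for 40 of the 47 genes (56 windows, build GRCh38.p14). MCM4, MCM5, GINS4, POLD3, DSCC1, RPA2 and RPA3 had no window. The letters TTTCGCGC, TTTGGCGC, TTTCCCGC or TTTGCCGC were found on either strand in 17 of the 56 windows (30.4%), and in 2.79% of all 35116 windows of the same length. The letters GGCGGGAA, which overlap TTTCCCGC read on the other strand, were in 10 windows (17.9%, against 2.72% of all), the CCAAT box in 30 (53.6%, against 32.01%) and the GC box GGGCGG in 42 (75%, against 42.6%). A match is a description of letters and not of a bound site. Below are windows of PCNA (the sliding clamp), MCM6 and GINS2, which hold E2F letters, of MCM10, which holds none although it followed the other genes most closely in live HCT-116, and of the 2 starts of UNG, whose transcripts are compared further on. Capitals mark the E2F letters and GGCGGGAA, and bases that lie in an annotated exon were left out at the right end.
PCNA, chr20:5126627-5126872, minus strand: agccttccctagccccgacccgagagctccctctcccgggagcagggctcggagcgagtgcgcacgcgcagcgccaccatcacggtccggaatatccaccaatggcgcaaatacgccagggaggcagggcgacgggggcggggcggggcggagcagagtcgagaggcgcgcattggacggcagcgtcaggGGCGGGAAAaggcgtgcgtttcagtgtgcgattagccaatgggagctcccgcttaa
MCM6, chr2:135876444-135876693, minus strand: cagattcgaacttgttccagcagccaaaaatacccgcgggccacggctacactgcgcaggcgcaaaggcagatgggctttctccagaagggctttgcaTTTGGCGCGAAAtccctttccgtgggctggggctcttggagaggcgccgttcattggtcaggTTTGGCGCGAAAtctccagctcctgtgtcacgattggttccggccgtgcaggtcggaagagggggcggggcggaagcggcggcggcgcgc
GINS2, chr16:85688955-85689204, minus strand: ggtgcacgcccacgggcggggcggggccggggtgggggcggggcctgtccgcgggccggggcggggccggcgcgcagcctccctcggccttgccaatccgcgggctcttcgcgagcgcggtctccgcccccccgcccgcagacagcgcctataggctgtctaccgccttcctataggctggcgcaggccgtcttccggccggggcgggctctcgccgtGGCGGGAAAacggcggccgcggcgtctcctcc
MCM10, chr10:13161308-13161557, plus strand: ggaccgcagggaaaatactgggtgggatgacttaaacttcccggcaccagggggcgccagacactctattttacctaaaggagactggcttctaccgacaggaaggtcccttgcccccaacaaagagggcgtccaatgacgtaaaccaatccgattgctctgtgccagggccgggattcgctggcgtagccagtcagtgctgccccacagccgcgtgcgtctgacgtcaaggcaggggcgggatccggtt
UNG, first start, chr12:109097347-109097596, plus strand: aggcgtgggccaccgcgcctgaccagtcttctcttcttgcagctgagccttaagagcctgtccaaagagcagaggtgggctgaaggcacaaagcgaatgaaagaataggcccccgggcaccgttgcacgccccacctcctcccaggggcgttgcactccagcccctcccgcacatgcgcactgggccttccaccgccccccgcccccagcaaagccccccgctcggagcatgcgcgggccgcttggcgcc
UNG, second start, chr12:109097922-109098117, plus strand: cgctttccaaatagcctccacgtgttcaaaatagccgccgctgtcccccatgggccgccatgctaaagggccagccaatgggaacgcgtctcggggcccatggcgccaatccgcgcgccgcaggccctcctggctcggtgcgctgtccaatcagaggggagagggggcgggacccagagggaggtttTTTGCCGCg
In PCNA and GINS2 the capitals are 2 overlapping matches each, and in MCM6 they are 4 matches that overlap in pairs. The coupling of a gene to the other replication genes in live HCT-116, a Spearman's rho explained further on, had a median of 0.81 for genes with the first 4 of these motifs and of 0.78 for genes without.

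The level of the 47 genes spanned about 2 orders of magnitude. The thymidine salvage kinase TK1 was the highest in live HCT-116 at 332 ± 163.2 TPM (SD, n = 91 cells), with a lowest cell at 0.249 TPM, a median of 346 TPM and a highest cell at 894 TPM. In fixed HCT-116 it was at 361 ± 200 TPM with a median of 378 TPM, and in live and fixed HepG2 at 337 ± 255 and 310 ± 232 TPM, with lowest cells at 0. The cells of each group overlapped over nearly the whole range. The lowest gene in live HCT-116 was GINS4, a subunit of the GINS complex, at 4.14 ± 3.97 TPM, and in live HepG2 it was CHAF1A, the large subunit of the CAF-1 histone chaperone, at 2.35 ± 2.44 TPM. PCNA was at 170 ± 104.8, 205 ± 134.8, 97.9 ± 84.2 and 130 ± 102.3 TPM. MCM7 was the highest helicase subunit in all 4 groups (199 ± 102.8, 210 ± 120.2, 206 ± 124.98 and 198 ± 136.6 TPM), although the 6 subunits form a ring with 1 copy each: in live HCT-116 the subunit means differed by 4.65-fold, from MCM6 at 42.8 TPM upwards. Among the GINS genes, whose products also join in equal number, GINS2 was at 60.6 ± 53.1 TPM and GINS4 at 4.14 TPM in live HCT-116. The polymerase genes ran from POLE, the catalytic subunit of polymerase epsilon, at 4.25 ± 3.12 TPM to POLD2, an accessory subunit of polymerase delta, at 118.3 ± 45.98 TPM. By role, the genes of licensing ran from CDT1 at 8.23 TPM to GMNN, an inhibitor of CDT1, at 70.5 TPM in live HCT-116, the clamp and its loaders from RFC1 at 16.1 TPM to PCNA, strand binding and maturation from LIG1 at 18.7 TPM to FEN1 at 64.4 TPM, nucleotide supply from RRM1 at 62.7 TPM to TK1, and chromatin from CHAF1A at 4.48 TPM to SLBP at 66.3 TPM. The same genes held these ends in live HepG2 except that RPA1 (29.6 TPM) was the lowest of strand binding and maturation and UNG (58.5 TPM) of nucleotide supply.

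**Figure D1:**
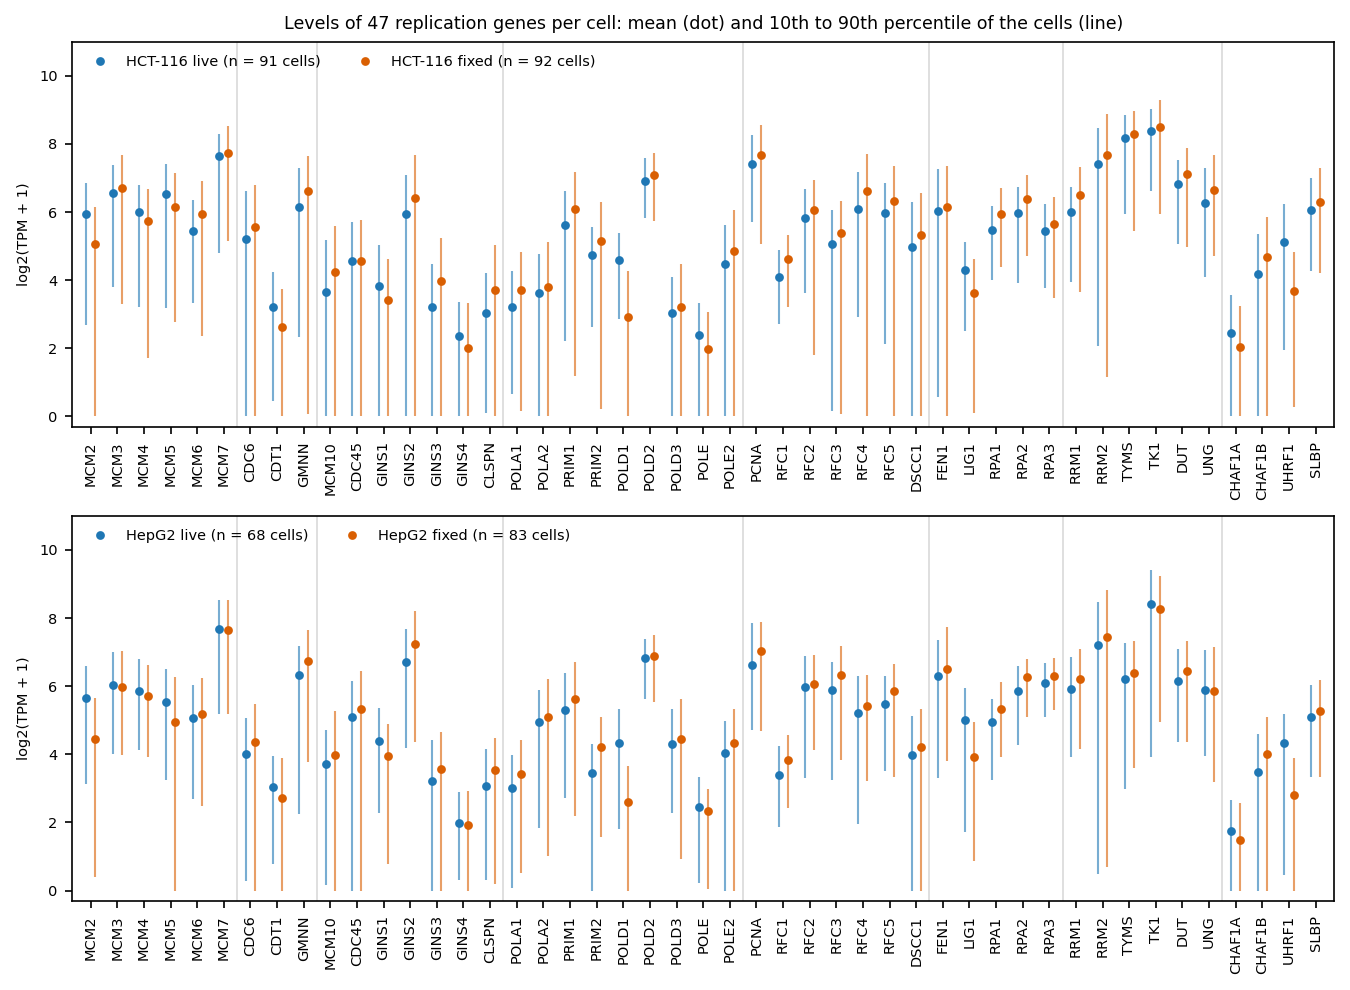
Level of each of the 47 genes on the log2(TPM + 1) scale in HCT-116 (upper) and HepG2 (lower), live in blue and fixed in orange; the dot is the mean TPM over cells and the line runs from the 10th to the 90th percentile of the cells. The lines of live and fixed cells overlap for every gene, and POLD1, UHRF1, MCM2 and LIG1 have lower orange dots in both lines.

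Nearly all cells held RNA of most of the genes. The median cell had 46 of the 47 above 0 in live and 45 in fixed HCT-116, and 47 and 45 in HepG2, while the poorest cells had 24, 15, 26 and 20. In live HCT-116, 33 of the 47 genes were above 0 in at least 90% of the cells and in fixed HCT-116 25 were, against 39 and 33 in HepG2. CHAF1A was the least often detected gene in all 4 groups: it was above 0 in 70.3% of live HCT-116 cells (95% exact Clopper-Pearson interval 59.8 to 79.5, counting error only), 55.4% of the fixed ones (44.7 to 65.8), 73.5% of live HepG2 cells (61.4 to 83.5) and 54.2% of the fixed ones (42.9 to 65.2). POLD1, the catalytic subunit of polymerase delta, went from 98.9% (94.03 to 99.97) to 72.8% (62.6 to 81.6) of HCT-116 cells and from 92.6% (83.7 to 97.6) to 79.5% (69.2 to 87.6) of HepG2 cells. Detection was lower in fixed than in live cells for 41 of the 47 genes of HCT-116 cells and, of the same genes, for 33 among HepG2 cells (87.2% and 70.2%), and it was lower for 76.7% and 63.8% of all genes tested. With cells paired on total reads (69 pairs in HCT-116 and 43 in HepG2), 33, 29, 39 and 42 genes reached 90%. The order of live and fixed thus turned in HepG2. No share over all genes is given for the counts at 90%. In the paired cells, detection was lower in fixed HCT-116 for 25 of the 47 genes (53.2%), beside 63.7% of all genes tested. In paired HepG2 cells it was lower for 12 (25.5%), beside 45.6% of all genes, so genes at large moved the same way.

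Fixation was compared next, as the ratio of the mean TPM of fixed to live cells. In HCT-116 the ratios of the 47 genes had a median of 0.27 (log2), beside 0.17 over the 11813 genes tested, and ran from -1.81 to 0.81. In all, 3 genes were higher in fixed cells by 1.5-fold or more and 5 were lower, while 12.3% of all genes tested were higher and 16.4% lower by that much. In HepG2 the median was 0.21 beside 0.15 over 12486 genes, and 1 gene was higher and 5 were lower by 1.5-fold or more, where 15.6% and 17.6% of all genes tested were. Most of the 47 genes thus lay within 1.5-fold between fixed and live cells, and so did most of all genes tested. Pairing HepG2 cells on total reads changed this, as given further on. With ribosomal RNA left out the median of the 47 genes turned to -0.046 in HCT-116, beside -0.16 for all genes, with 0 genes higher and 11 lower by 1.5-fold, where 4.10% and 26.9% of all genes tested were. In HepG2 it was 0.05 beside -0.04 for all genes, with 1 higher and 6 lower, where 9.31% and 22.9% of all genes were.

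Of the 5 genes at the low end of each line, 4 were the same. POLD1 was at 0, 22.5 and 72.6 TPM in the lowest, median and highest live HCT-116 cell and at 0, 4.64 and 25.7 TPM in the fixed ones, and at 0, 15.4 and 49.8 TPM in live against 0, 4.24 and 18.6 TPM in fixed HepG2. The median fixed cell lay well below the median live cell, though the ranges overlap. Its means were 23.1 ± 13.9, 6.61 ± 7.14, 19.2 ± 13.4 and 5.12 ± 4.91 TPM, so the mean was 3.50-fold lower in fixed HCT-116 and 3.76-fold lower in fixed HepG2. UHRF1, which brings the maintenance methyltransferase to newly replicated DNA, reached 0, 24.9 and 153.5 TPM in the lowest, median and highest live HCT-116 cell and 0, 7.81 and 55.7 TPM after fixation, and 0, 17.7 and 61.5 TPM in live HepG2 and 0, 4.2 and 36.54 TPM after fixation. Its mean was 2.89-fold lower in fixed HCT-116 and 3.17-fold lower in fixed HepG2. Again the lowest cells of both groups were at 0, and the median and the highest cell were lower after fixation in both lines. MCM2, a helicase subunit, had medians of 56.6, 28.9, 39.1 and 17.3 TPM and highest cells at 155.03, 130.2, 182.6 and 78.2 TPM, all with lowest cells at 0, and means 1.83-fold and 2.40-fold lower in fixed cells. LIG1, the ligase that seals Okazaki fragments, had medians of 18.4, 10.3, 30.4 and 12.2 TPM, lowest cells at 0 and highest cells at 45.5, 43.9, 115.1 and 53.6 TPM, and means 1.64-fold and 2.21-fold lower. These 4 genes were the only ones of the 47 past 1.5-fold in the same direction in both lines. They stayed so with rescaling, with ribosomal RNA left out and with paired cells. The share of all genes past it in both lines is not given, so this count cannot be set against genes at large. The fifth low gene was CDT1, a licensing factor, in HCT-116 (log2 ratio -0.68, beside -0.35 in HepG2) and MCM5 in HepG2 (-0.60, beside -0.38 in HCT-116). MCM5 was at -0.28 with paired cells and at -0.57 without 6 HepG2 columns that closely resemble one another.

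The genes at the high end differed more between the lines. In HCT-116 these were GINS3 at 0.81 (log2 ratio), the checkpoint mediator CLSPN at 0.73, the initiation factor MCM10 at 0.61, the catalytic polymerase alpha subunit POLA1 at 0.56 and the largest RFC subunit RFC1 at 0.56. GINS3 went from 8.37 ± 9.19 TPM (lowest, median and highest cell 0, 5.99 and 36.7) in live to 14.6 ± 16.8 TPM (0, 8.45 and 67.05) in fixed HCT-116, so the groups overlap almost entirely. Without ribosomal RNA, GINS3, CLSPN and MCM10 were at 0.48, 0.42 and 0.30 and none of them passed 1.5-fold. In HepG2 the high genes were PRIM2, the large primase subunit, at 0.83, CHAF1B of CAF-1 at 0.56, GINS2 at 0.55, CLSPN at 0.50 and RFC1 at 0.49. PRIM2 went from 0, 8.28 and 36.3 TPM in the lowest, median and highest live HepG2 cell to 0, 16.2 and 53.1 TPM in the fixed ones (means 9.88 ± 8.44 and 17.6 ± 11.9 TPM, 1.78-fold), and it stayed past 1.5-fold without ribosomal RNA (0.67). With HepG2 cells paired on total reads 23 of the 47 genes (48.9%) were higher by 1.5-fold or more, in place of 1, and 23.2% of all genes tested were, in place of 15.6%. The median log2 ratio was then 0.57 for the 47 genes and 0.24 for all genes, so the upper end of the HepG2 ratios depends on which cells are set side by side.

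Across the 47 genes the log2 ratios of both lines, which share no cells, had a Spearman's rho of 0.82 (0.55 over the 10443 genes tested in both). The ratios ran with the GC content of the reference transcript and not with its length. Over the 47 genes the rho of the ratio with GC content was -0.65 for each line, and with length -0.01 and -0.08. Over all genes tested with a reference transcript (10520 and 10867) the rho with GC content was -0.48 and -0.29. POLD1 had the highest GC content of the 47 (64.8%), CDT1 the second (64.3%), LIG1 59.9%, MCM2 57.4% and UHRF1 55.7%, against a median of 47.3%. TK1 (60.3%) and POLD2 (59.4%) had a GC content as high, with ratios of 0.12 (TK1) and 0.19 (POLD2) for HCT-116 cells and of -0.12 and 0.07 for HepG2 cells, and GINS1 (41.9%) had ratios of -0.43 and -0.47. The part of GC content in these ratios was not tested. Genes are not independent replicates, and these correlations carry no test.

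**Figure D2:**
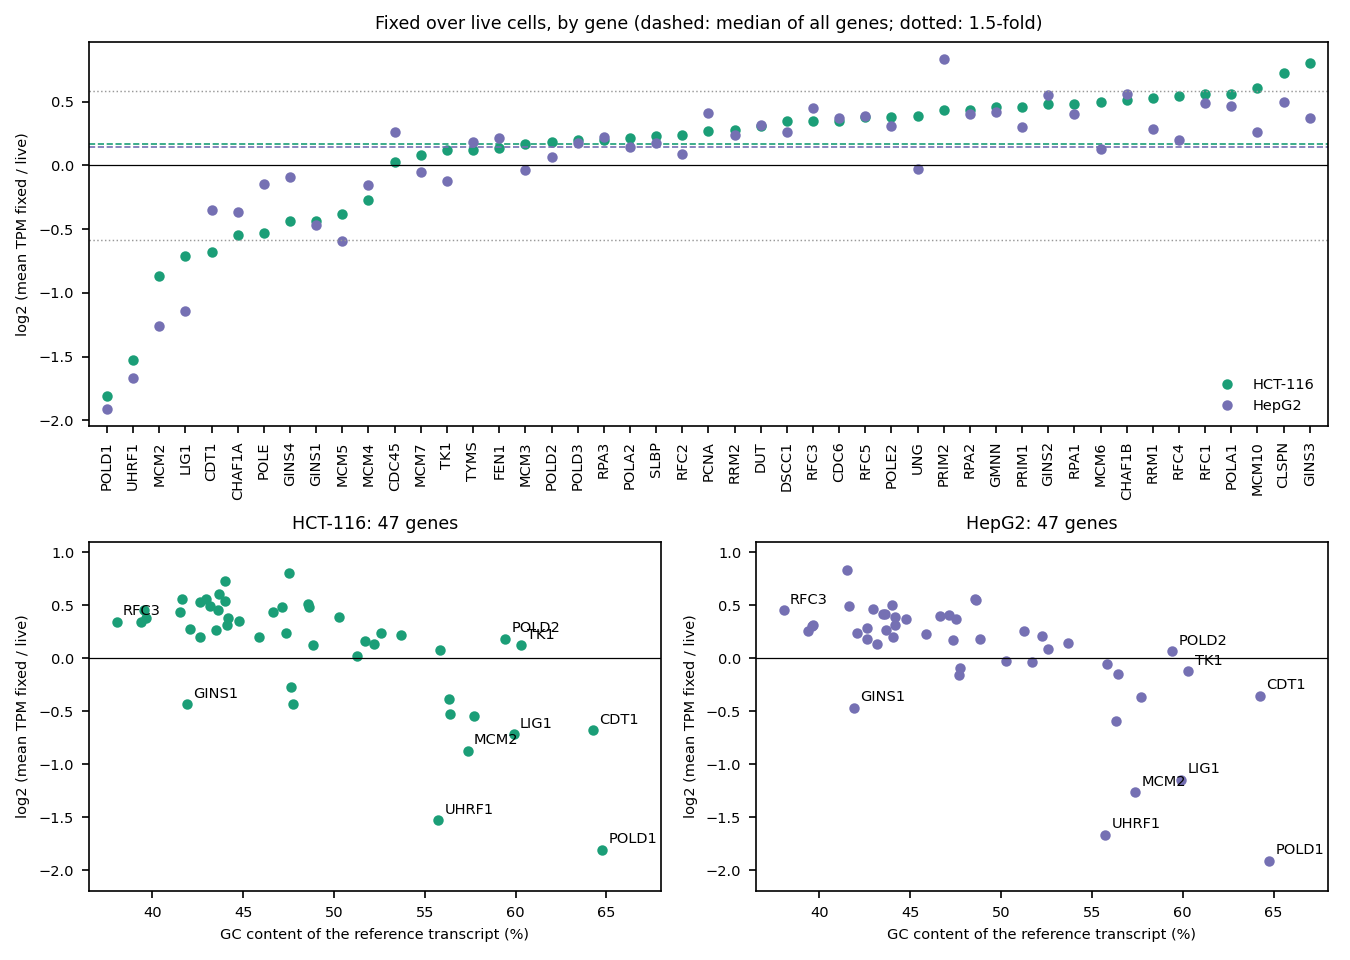
Log2 ratio of mean TPM in fixed over live cells for the 47 genes in HCT-116 (green) and HepG2 (purple), in the order of HCT-116 (top), and against the GC content of the reference transcript in percent (bottom). POLD1, UHRF1, MCM2 and LIG1 lie below the lower 1.5-fold line in both lines, and the ratios fall towards high GC content with a Spearman's rho of -0.65 in each line.

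Other genes of replication, a list of 64 that includes origin recognition, replication fork, cyclin and E2F genes, gave similar counts. In HCT-116 7 of the 63 tested were higher and 6 lower in fixed cells by 1.5-fold or more (median log2 ratio 0.25). Of all genes tested 12.3% were higher and 16.4% lower by that much. In HepG2 3 of 63 were higher and 4 lower (median 0.16), where 15.6% and 17.6% of all genes tested were. Without ribosomal RNA 0 were higher and 9 lower in HCT-116, and 1 was higher and 5 lower in HepG2. RECQL4, a helicase needed for initiation, had a 4.93-fold lower mean in fixed HCT-116 and 3.35-fold lower in fixed HepG2, and CHTF18, a loader of PCNA, 3.89-fold and 8.73-fold lower. TIMELESS, a fork protection factor, was 1.64-fold lower in each. ORC5 of the origin recognition complex was 1.62-fold and 1.503-fold higher, and in HCT-116 it was no longer past 1.5-fold without ribosomal RNA. Of 30 mitotic genes none was past 1.5-fold in HCT-116, beside the shares of all genes given above. In HepG2 only the mitotic kinase PLK1 was, 1.55-fold lower in fixed cells, beside 1.49-fold lower in HCT-116. Without ribosomal RNA 2 of the 30 were lower by 1.5-fold or more in HCT-116 and 1 in HepG2, and none was higher.

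More of the genes differed between HepG2 and HCT-116 than between live and fixed cells. In live cells the 47 genes had a median log2 ratio of HepG2 to HCT-116 of -0.24, beside 0.07 over all genes tested: 7 were higher in HepG2 by 1.5-fold or more and 13 lower, where 32.6% and 28% of all genes tested were. In fixed cells the median was -0.33 beside 0.07, with 6 higher and 18 lower, where 32.6% and 27.9% of all genes were. Without ribosomal RNA 4 were higher and 18 lower in live cells, where 28.9% and 33.3% of all genes were. Of the 47 genes 18 (38.3%) were past 1.5-fold in the same direction in live and fixed cells, beside 48.6% of the 11700 genes tested in both, and none of the 47 was past it in opposite directions, beside 0.735% of all genes.

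TYMS, the thymidylate synthase, had the lowest ratio. It was at 0, 319 and 645 TPM in the lowest, median and highest live HCT-116 cell and at 0, 63.8 and 212 TPM in live HepG2, with means of 286 ± 146.3 and 72.9 ± 53.2 TPM, a 3.93-fold difference. In fixed cells the means were 312 ± 178.1 and 82.8 ± 60.8 TPM, a 3.77-fold difference. The highest HepG2 cell lay below the median HCT-116 cell in live cells. TK1, which serves the same thymidylate pool by salvage, did not follow: its mean in live cells was 1.02 times as high in HepG2. PRIM2 was 2.58-fold lower in live HepG2 (medians 8.28 and 24.5 TPM), CDC6 2.42-fold (medians 13.5 and 19 TPM), the alternative loader subunit DSCC1 2.07-fold and MCM5 2.02-fold. POLA2, the accessory subunit of polymerase alpha, went the other way: 0, 28.4 and 81.6 TPM in live HepG2 against 0, 8.84 and 52.9 TPM in live HCT-116, a 2.66-fold higher mean (29.9 ± 20.7 against 11.2 ± 11.8 TPM). POLD3 of polymerase delta was 2.58-fold higher (medians 16.9 and 5.65 TPM), RFC3 1.80-fold, GINS2 1.70-fold and LIG1 1.67-fold. LIG1 was within 1.5-fold without ribosomal RNA (log2 ratio 0.55). The least different genes in live cells were GINS3 (-0.0051), TK1 (0.023), CLSPN (0.041), MCM7 (0.050) and RRM1 (-0.065).

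Within several complexes the ratio between lines had both signs. In polymerase alpha-primase POLA2 was higher and PRIM2 lower in HepG2, while POLA1 (log2 ratio -0.24) and PRIM1 (-0.32) were within 1.5-fold. In RFC, which loads PCNA, RFC3 was at 0.85 and RFC4 at -0.89, with RFC1 at -0.76, RFC5 at -0.50 and RFC2 at 0.14. In polymerase delta POLD3 was at 1.37 and POLD1 and POLD2 at -0.27 and -0.08. In GINS, GINS1 was at 0.59, GINS2 at 0.76 and GINS4 at -0.49. The 6 MCM genes ran from -1.02 (MCM5) to 0.05 (MCM7). Both CAF-1 subunits were lower in HepG2 (CHAF1A -0.93, CHAF1B -0.77). RPA3, the small subunit of the single-strand binding protein RPA, was at 0.65 with RPA1 at -0.56 and RPA2 at -0.11. SLBP, which binds histone mRNA, was at -0.99. POLE and POLE2 of polymerase epsilon were at 0.09 and -0.48.

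Cells of 1 group differed strongly in the summed level of the 47 genes. The sum had a mean of 2884 ± 1501, 3300 ± 1849, 2392 ± 1419 and 2591 ± 1499 TPM. Its lowest cells were at 424, 309, 302 and 416 TPM, its medians at 2795, 3224, 2189 and 2375 TPM and its highest cells at 6416, 7251, 5381 and 6722 TPM. The 90th percentile cell had 7.71, 7.86, 7.22 and 5.33 times the sum of the 10th percentile cell. The coefficient of variation (CV, SD over mean) of single genes had a median of 0.75, 0.83, 0.73 and 0.81 in the same order. Set against genes of like mean (the median CV in the same of 20 bins), 42, 42, 41 and 39 of the 47 genes varied more than their bin, by a median of 1.42, 1.36, 1.37 and 1.32 times.

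RRM2, the regulated subunit of ribonucleotide reductase, varied most against its bin in all 4 groups: its CV was 0.87, 0.95, 1.096 and 1.124, or 2.76, 2.78, 3.06 and 3.38 times that of its bin. In live HCT-116 it was at 0, 141.8 and 637 TPM in the lowest, median and highest cell. RRM1, its partner subunit, was 1.21, 1.37, 1.37 and 1.52 times its bin. POLD2 had the lowest CV of the 47 genes in each group (0.39, 0.51, 0.42 and 0.42), 0.97, 1.13, 0.98 and 1.01 times that of its bin. Of the 47 genes 39 in HCT-116 (82.98%) and 33 in HepG2 (70.2%) had the higher CV in fixed cells, near the 84.8% and 67.5% of all genes tested. Once cells were paired on total reads 22 and 15 did (46.8% and 31.9%), beside 74.4% and 47.4% of all genes.

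The genes rose and fell together from cell to cell. Over the 1081 pairs of the 47 genes, Spearman's rho over cells had a median of 0.63 in live HCT-116 (n = 91 cells), 0.59 in fixed HCT-116 (n = 92), 0.60 in live HepG2 (n = 68) and 0.48 in fixed HepG2 (n = 83), while the median over pairs of all genes with a mean of at least 1 TPM was 0.02, 0.02, 0.06 and 0.04. No pair was below 0 in the first 3 groups and 5 were in fixed HepG2. Cells of a group share a preparation, so these values are a description. With the number of genes detected taken out of the ranks the medians were 0.62, 0.54, 0.58 and 0.45.

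As a measure per gene, each gene was correlated with the mean z score of log2(TPM + 1) of the other 46, called its coupling here. All 47 genes had a coupling of at least 0.3 in live HCT-116, fixed HCT-116 and live HepG2, and 46 had in fixed HepG2, while 14.3%, 14.3%, 18.1% and 14.2% of all genes tested correlated with the score of the 47 genes at that level. The flap endonuclease FEN1 was near the top throughout (0.91, 0.91, 0.92 and 0.89). MCM10 had 0.92, MCM4 0.91, CDC6 0.89 and RFC4 0.89 in live HCT-116, and MCM7 0.92, GINS2 0.91, LIG1 0.90 and RFC2 0.89 in live HepG2. The lowest in live HCT-116 were POLD2 (0.48), RPA3 (0.55), GINS4 (0.58), LIG1 (0.59) and CDT1 (0.60), and in live HepG2 PRIM2 (0.36), POLE (0.50), GINS3 (0.53), POLD2 (0.55) and CDT1 (0.56). LIG1 thus stood at opposite ends in the live cells of the 2 lines. Over the 47 genes the coupling in live HCT-116 and live HepG2 had a Spearman's rho of 0.62.

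Subunits of 1 complex were tied to a different degree. The 15 pairs among MCM2 to MCM7 had a median rho of 0.80, 0.78, 0.83 and 0.66, and the tightest pair of all in live HCT-116 was MCM4 with MCM5 at 0.89. RRM1 with RRM2 had 0.74, 0.74, 0.82 and 0.82, and RRM2 with TK1 was the tightest pair in live HepG2 at 0.91. The RFC pairs had medians of 0.69, 0.66, 0.59 and 0.59. The pairs of GINS (0.56, 0.50, 0.55 and 0.36), of polymerase alpha-primase (0.55, 0.49, 0.41 and 0.41), of RPA (0.41, 0.51, 0.54 and 0.29) and of polymerase delta (0.43, 0.32, 0.44 and 0.37) were lower than those of the MCM ring in every group. In each group they also lay below the median of all pairs of the 47 genes. CHAF1A with CHAF1B of CAF-1 had 0.64, 0.53, 0.44 and 0.22, and POLE with POLE2 0.51, 0.41, 0.34 and 0.29. GINS4 (2.77 to 4.14 TPM), POLE (2.95 to 4.52 TPM) and CHAF1A (1.82 to 4.48 TPM) had low means in all 4 groups. The lowest mean of an MCM gene was 20.8 TPM. The part of level in the order of the complexes was not tested. In live HCT-116 POLD2 had the lowest coupling at 118.3 TPM, whereas CHAF1A, at 4.48 TPM, had 0.76. Other genes there were low on both, such as GINS4 (4.14 TPM, 0.58), CDT1 (8.23 TPM, 0.60) and POLE (4.25 TPM, 0.61). The relation of level to coupling over the 47 genes was not tested.

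**Figure D3:**
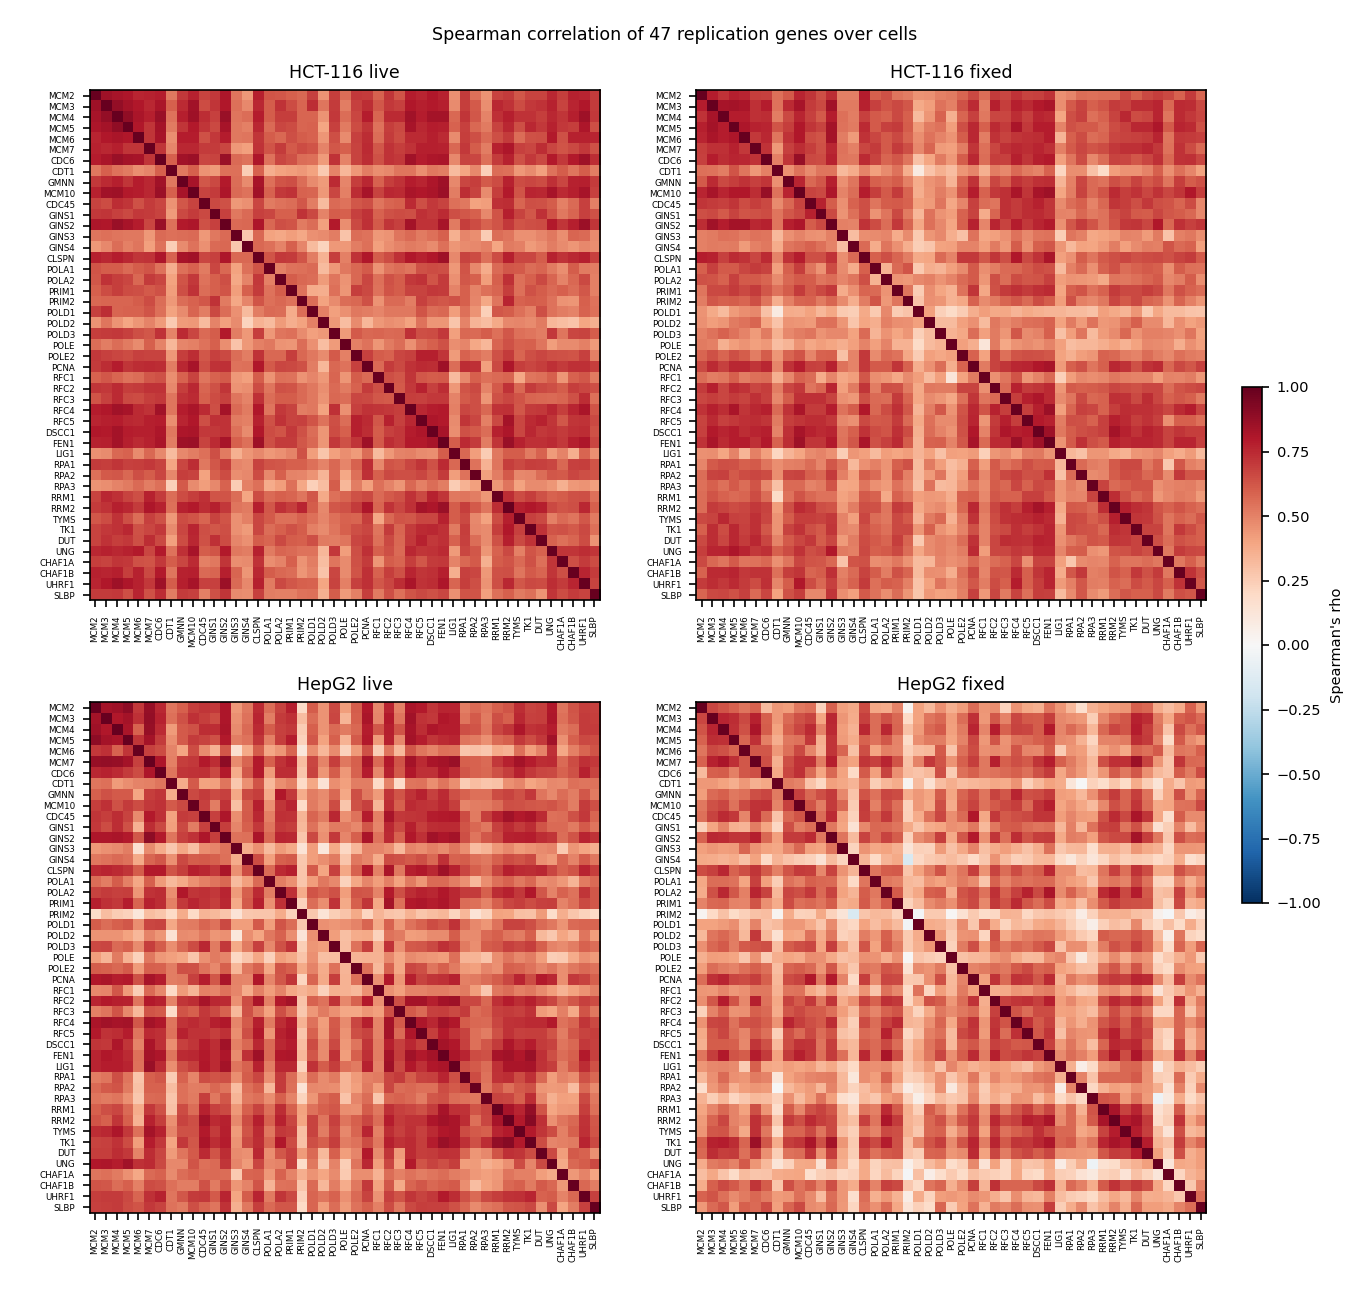
Spearman's rho over cells for each pair of the 47 genes in the 4 groups, from blue (-1) through white (0) to red (1). Most pairs are red. The MCM block at the upper left is dark, though less so in fixed HepG2, where the rows of PRIM2, GINS4 and CHAF1A are pale.

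Coupling was lower in fixed than in live cells for 32 of the 47 genes in HCT-116 (68.1%) and 38 in HepG2 (80.9%), with a median change of -0.017 and -0.065. Of all genes that correlated with the score at 0.3 or more in live cells, 70.6% and 79.7% had a lower value in fixed cells. Those genes were picked by their value in live cells, which by itself favours a lower value in fixed cells. The 47 genes were picked by name, so these shares cannot say whether their fall is usual. The largest fall in HCT-116 was that of POLD1, from 0.66 to 0.42, and in HepG2 that of LIG1, from 0.90 to 0.52. POLD1 also went from 0.72 to 0.48 in HepG2, UHRF1 from 0.82 to 0.57 and MCM2 from 0.86 to 0.61. GINS4 (0.70 to 0.38), UNG (0.74 to 0.44) and CHAF1A (0.62 to 0.34) fell in HepG2 as well. GINS4 and CHAF1A had low means in fixed HepG2 (2.77 and 1.82 TPM), and the part of low level in their fall was not tested. Over the 47 genes the change in coupling had a rho of -0.03 with the log2 ratio of fixed to live in HCT-116 and of 0.42 in HepG2. The order of the genes by coupling was kept in part, with a rho between live and fixed cells of 0.89 in HCT-116 and 0.75 in HepG2.

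Among the 10 genes outside the list that followed the score of the 47 genes most closely in live HCT-116 were the exonuclease EXO1 (rho 0.87), the chromatin ATPase ATAD2 (0.86), the CDK1-inhibiting kinase PKMYT1 (0.86), the histone chaperone ASF1B (0.86), DNAJC9 (0.85), the kinetochore protein ZWINT (0.85), WDR76 (0.84), the ubiquitin ligase adaptor DTL (0.83) and the origin recognition subunit ORC6 (0.83). Among the 10 in live HepG2 were ASF1B (0.89), the helicase BRIP1 (0.88), FAM111B (0.87), DNAJC9 (0.87), EXO1 (0.86), the recombination factor RAD54L (0.86), ATAD2 (0.85), the folate enzyme MTHFD1 (0.84) and FANCA (0.84) of the Fanconi pathway. Both lists of 10 held ASF1B, ATAD2, DNAJC9 and EXO1. Of the 64 other replication genes 53 of 63, 52 of 64, 53 of 63 and 51 of 63 with a mean of at least 1 TPM correlated with the score at 0.3 or more.

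The replication score was then set against a score of 30 mitotic genes made in the same way. The scores had a Spearman's rho over cells of 0.47 in live HCT-116, 0.55 in fixed HCT-116, 0.40 in live HepG2 and 0.34 in fixed HepG2. The points did not lie on a line. In live HCT-116, 25 of the 91 cells were below 0 on both scores, 12 were above 0 on the replication score alone, 45 on both and 9 on the mitotic score alone. The counts were 29, 13, 42 and 8 of 92 in fixed HCT-116, 20, 10, 32 and 6 of 68 in live HepG2, and 21, 10, 39 and 13 of 83 in fixed HepG2. Scores are centred within each group, so these counts describe the shape and not a difference between groups. The replication score had a rho of 0.20, 0.43, 0.27 and 0.40 with the number of genes detected of 0.01, 0.21, 0.23 and 0.33 with the number of reads, and of 0.28, 0.38, 0.46 and 0.51 with the sum of the TPM values of a cell. The part of these in the co-variation was not tested beyond the number of genes detected.

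**Figure D4:**
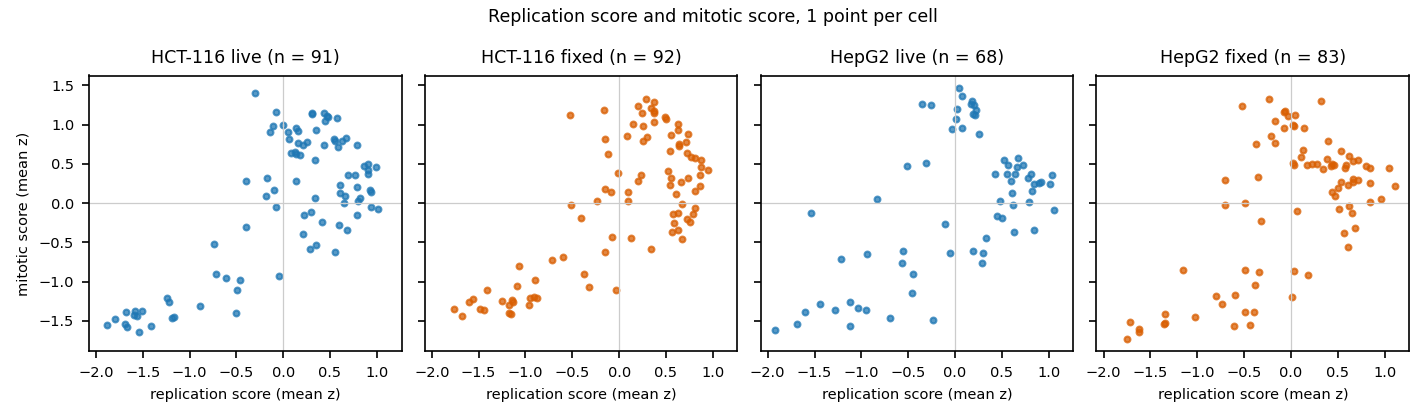
Replication score (mean z score of the 47 genes, x axis) against mitotic score (mean z score of 30 mitotic genes, y axis), 1 point per cell, in the 4 groups. In each group the points bend from a cloud low on both scores, through cells high on replication, to cells high on the mitotic score.

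Single genes took different places along this bend. RRM2 had the highest correlation with the mitotic score in all 4 groups (0.65, 0.75, 0.60 and 0.59). TYMS (0.63 and 0.67) and PRIM2 (0.63 and 0.57) were high in HCT-116, and RFC3 (0.59 and 0.45) and RRM1 (0.56 and 0.49) in HepG2. UNG (0.21, 0.29, -0.10 and -0.34) was the lowest or next to lowest in all 4 groups. CDT1 (0.22 and 0.23) was low in HCT-116, and MCM6 (-0.05 and -0.02) in HepG2, where it was at 0.28 and 0.41 in HCT-116. MCM2, MCM3 and MCM5 were at 0.16, 0.14 and 0.11 in live HepG2 and at -0.07, 0.04 and 0.02 in fixed HepG2, and PCNA at 0.06 and 0.09. Other helicase and licensing genes were not low, such as MCM7 (0.55, 0.57, 0.31 and 0.27) and the licensing inhibitor GMNN (0.43, 0.52, 0.55 and 0.46). The order of this correlation over the 47 genes had a rho between live and fixed cells of 0.65 in each line.

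UNG and DUT make both a nuclear and a mitochondrial protein from 1 gene. UNG removes uracil from DNA, and DUT breaks down dUTP before it can be built in. The transcript values, in CPM (reads scaled to a fixed total and not divided by length), list the forms one by one. Nuclear UNG (known as UNG2) was at 0, 76.2 and 286 CPM in the lowest, median and highest live HCT-116 cell, and mitochondrial UNG (UNG1) at 0, 18.2 and 65.9 CPM. In live HepG2 these were 0, 48.5 and 405 CPM for the nuclear and 0, 26.1 and 111.9 CPM for the mitochondrial form. The nuclear form was the more abundant, with 81.6%, 76.9%, 72.6% and 66.4% of the summed CPM of both forms. The sum gives more weight to cells with high values. As a mean over cells with a value, the nuclear share was 71.18% ± 33.46 (SD), 64.62% ± 35.99, 62.34% ± 36.31 and 65.04% ± 35.32. The spread over cells was thus wider than the differences between groups. Nuclear DUT took 93.7%, 95.2%, 87.1% and 92.5% of the sum with mitochondrial DUT, at a mean of 40.2 ± 25.8 against 2.68 ± 3.57 CPM in live HCT-116. The other DUT transcript listed was at 1.00 ± 1.43 CPM there. Over cells with a value, the mean nuclear share of DUT was 88.68% ± 22.05 (SD), 89.22% ± 25.48, 79.42% ± 28.27 and 86.15% ± 23.46.

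The nuclear forms followed the other replication genes, and the mitochondrial forms had a rho near 0 or slightly below with them. The rho of nuclear UNG with the score of the other 46 genes was 0.88, 0.90, 0.83 and 0.72, and that of mitochondrial UNG -0.04, -0.18, -0.14 and -0.13. For DUT these were 0.78, 0.73, 0.84 and 0.81 for the nuclear and -0.02, 0.01, 0.06 and 0.07 for the mitochondrial form. Within the same cells the forms of UNG had a rho of -0.02, -0.16, -0.00015 and 0.07 with each other, and those of DUT -0.05, 0.04, 0.12 and 0.13. Mitochondrial UNG was above 0 in 83.5% of live HCT-116 cells (95% exact interval 74.3 to 90.5) and nuclear UNG in 87.9% (79.4 to 93.8), with overlapping intervals. In fixed HepG2 these were 68.7% (57.6 to 78.4) and 84.3% (74.7 to 91.4). Mitochondrial DUT was above 0 in 60.4% (49.6 to 70.5) of live HCT-116 cells, and in 44.6%, 67.6% and 60.2% of the cells of the other groups. Its mean was 2.68, 2.68, 5.29 and 3.63 CPM. At values this low a rho near 0 cannot tell whether mitochondrial DUT follows the score. Mitochondrial UNG went against the mitotic score, with a rho of -0.46, -0.48, -0.61 and -0.45, while nuclear UNG had 0.33, 0.42, 0.13 and 0.03.

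**Figure D5:**
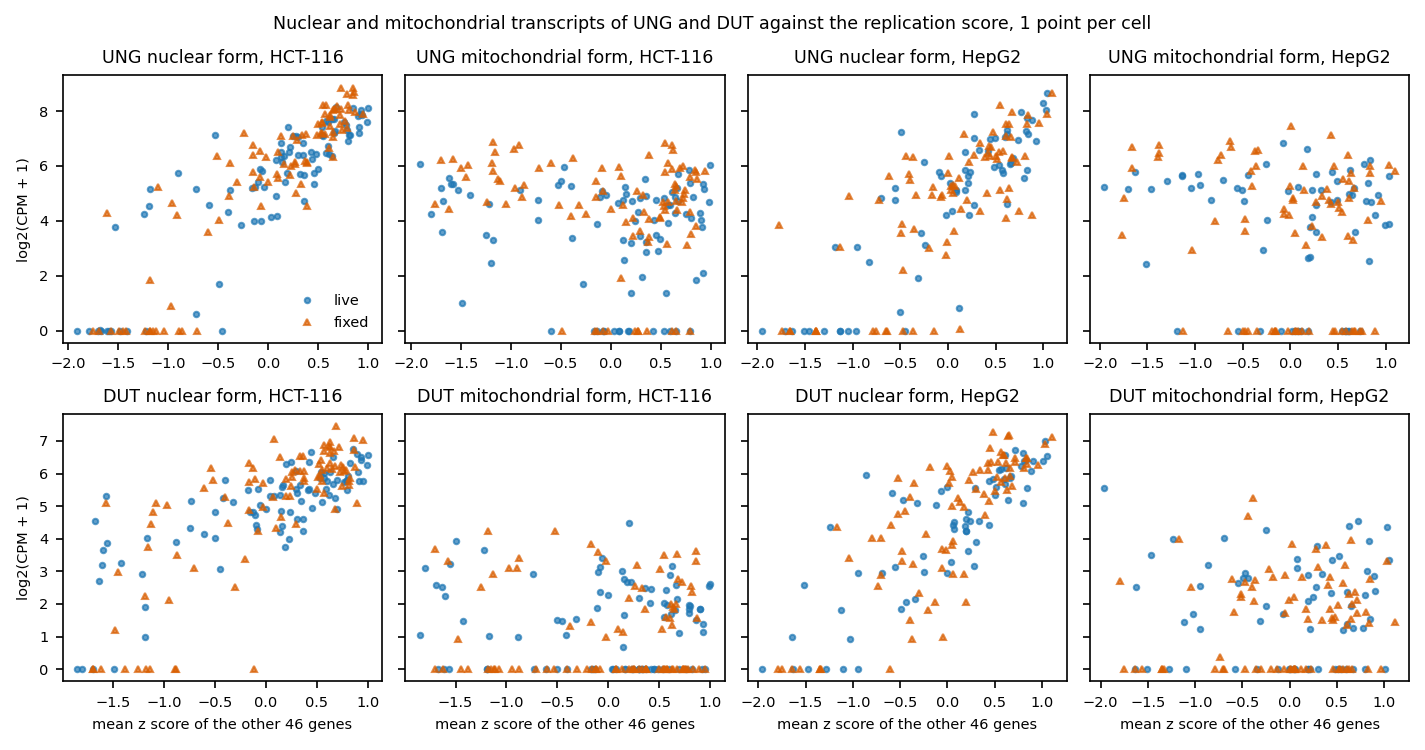
Level of the nuclear and mitochondrial transcripts of UNG (top) and DUT (bottom) on the log2(CPM + 1) scale against the mean z score of the other 46 genes, 1 point per cell, live in blue and fixed in orange. The nuclear forms rise with the score in both lines, and the mitochondrial forms are flat, with a rho between -0.18 and 0.07. Mitochondrial DUT lies close to the floor.

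The forms start at different places. Forms were matched to GENCODE release 44 transcripts by the known length of each protein. On this match nuclear UNG starts at base 109097597 of chromosome 12, the first RefSeq start shown above, and mitochondrial UNG at base 109098118, which is 54 bases before the second RefSeq start. The window before the first start held none of the E2F letters, and the window before the second held 1 match and 3 CCAAT boxes. For DUT the order was the other way: mitochondrial DUT starts first, at base 48331429 of chromosome 15, and nuclear DUT at base 48332103. The 250 bases before the next RefSeq start, at 48332197, held 3 matches of the letters in capitals above, but these lie in bases that GENCODE places within the nuclear transcript, and the 250 bases before 48331429 held none. No match says only that these letters are not in this window.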

How the data were processed

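The authors sorted single cells into plates, made Smart-seq2 cDNA, and quantified reads against the human genome GRCh38 with kallisto (version 0.46.0, per the labels), summing transcripts to genes with tximport. The deposited gene tables hold TPM per gene. The deposited transcript tables are named TPM but hold CPM per transcript, since their values are scaled reads and are not divided by length. The labels list 91, 96, 69 and 90 cells of HCT-116 live and fixed and of HepG2 live and fixed, and 334 of them in all had a column. The authors state that only cells above a set number of detected genes were kept, and their cell counts per line match the columns. The detection shares thus rest on cells already selected on detection. The total count of reads per cell was read from the step of the transcript values. Column names gave the group of a cell but matched no single label, so each group was used as a whole.

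Means, SDs, CVs and Spearman correlations over cells were computed with Python 3.11.15, numpy 2.4.6, scipy 1.17.1 and pandas 2.3.3. The fold was the ratio of mean TPM, over genes whose group means averaged at least 1 TPM, and 1.5-fold was called. Shares carry exact Clopper-Pearson intervals at 95%, which cover counting error only. GC content and length came from the GENCODE release 44 reference transcripts, and promoter windows from RefSeq. All 47 genes had a reference transcript. Scripts were tested on simulated data. The genes named were the 5 highest and 5 lowest for fixed against live and for coupling in live cells, the 5 most and 5 least different between lines, those past 1.5-fold in both lines, the subunits of the complexes, and the 10 other genes closest to the score. Of the latter, 1 gene in each line is not reported here. The genes and lists were chosen with earlier results of these data known. Alternatives tried were rescaling by the median ratio of broadly detected genes, leaving out ribosomal RNA, means of log2(TPM + 1) or log2(TPM + 0.1), no filter on low values, cells paired on total reads within 10%, another correlation, other detection limits, and leaving out columns.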

Additional observations from a re-analysis of the deposited data

How the results depend on the processing

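No paired analysis was possible because each line and treatment is 1 sample, no test was run, and the column numbers match no label. For fixed against live HCT-116, the median log2 ratio of the 47 genes turned from 0.27 to -0.046 with ribosomal RNA left out and to -0.029 on the mean of log2(TPM + 0.1), and the genes with the higher mean in fixed cells fell from 36 to 21 under each. There, 3 genes were higher by 1.5-fold, against 1 after rescaling, 0 with ribosomal RNA left out or on either log scale, and 7 with paired cells. There were 5 genes lower, against 9 after rescaling, 11 without ribosomal RNA and 12 on log2(TPM + 0.1). In HepG2, 1 gene was higher, against 23 with paired cells and 4 on log2(TPM + 0.1), which gave 9 lower in place of 5. Between the lines, live cells had 4 genes higher in HepG2 by 1.5-fold in place of 7 and 9 with the higher mean in place of 16 without ribosomal RNA, and fixed cells had 19 with the higher mean in place of 12 on log2(TPM + 1). With paired cells the genes with the higher CV in fixed cells went from 39 to 22 in HCT-116 and from 33 to 15 in HepG2. The cause of these moves was not tested, beyond the smaller number of cells in the pairing. With paired cells 33 and 29 genes were detected in 90% of live and fixed HCT-116 cells, in place of 33 and 25, and 39 and 42 in HepG2, in place of 39 and 33, which turned the order of live and fixed there. The other medians, correlations, isoform shares and counts kept their direction, or stayed within 1.5 times, under the alternatives run. Leaving out the HepG2 columns that resemble one another was added after seeing the data. What depth limits was tested only by pairing cells on total reads.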
